A study of Mus musculus with 8 samples.

Results

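The genes described here encode the proteins of the cytosolic ribosome. A probe set, the group of probes that an Affymetrix array reads as 1 value, was a member where the platform annotation gave it exactly 1 gene symbol, and that symbol was Rpl or Rps followed by a digit, Rplp followed by a digit, or Rpsa. Kinases of the Rps6k family and Rps19bp1 were left out. This gave 106 of the 45056 probe sets on the array, for 50 of the 18193 symbols that had such a probe set: 43 core ribosomal protein genes (22 of the large and 21 of the small subunit), 6 paralogues and 1 pseudogene. A further 110 probe sets listed several genes, at least 1 of them a ribosomal protein, and were not members.

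Germinal centre (GC) B cells, the dividing B cells of an immune response, came from spleens of C57BL6-background mice with a knock-in fusion of GFP to MYC, aged 8 weeks. The immunization was with sheep red blood cells, 12 days earlier, in every mouse. GC B cells were gated as PNA-high and CD95-high and the GFP signal then divided them: 4 samples are MYC-positive and 4 are MYC-negative. Both groups thus carried the fusion, had the same age and immunization, and differed by the GFP gate only. Each positive sample is tied to 1 negative sample by the sample descriptions, which makes 4 pairs. The replicate numbers in the sample titles run differently, from 1 to 4 for the negative and 4 to 7 for the positive samples, and were not used for pairing. The protocol speaks of a sort for each mouse and the design text of pools, so a pair may or may not be 1 mouse, and the p-values speak for the spread among these 8 samples alone. The copy number of the fusion is not given in the sources used here.

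A ribosome joins a large subunit, which forms peptide bonds, to a small subunit, which reads the mRNA, and each is ribosomal RNA wrapped in many small proteins of the Rpl and Rps families. Ribosomal protein mRNAs are among the most abundant in dividing cells, and most start with a C followed by a run of pyrimidines, the terminal oligopyrimidine (TOP) tract, through which mTORC1 and LARP1 set how much of them is translated. MYC is known for raising ribosome production, by acting on ribosomal RNA synthesis, assembly factors and ribosomal protein genes.

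Sequences before and at the start of the genes are shown first, because the CACGTG E-box is the site MYC binds with MAX and the pyrimidine run is the mark of TOP mRNAs. RefSeq windows of build GRCm38.p6, from 250 bases before to 50 after a gene's start, were found for 43 of the 50 member symbols, 38 of them core genes. CACGTG, which reads the same on both strands, was in a window of 4 of these 38 core genes (10.5%), beside 8.09% of all 27025 genes with a window. The 4 genes were Rpl13a, Rpl14, Rpl19 and Rps19, and each stretch below lies before the start, with the E-box in capitals.
Rpl14, chr9:120571322-120571381, plus strand: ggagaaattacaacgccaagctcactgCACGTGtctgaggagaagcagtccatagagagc
Rpl13a, chr7:45128913-45128972, minus strand: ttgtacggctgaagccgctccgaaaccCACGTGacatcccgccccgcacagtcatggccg
Rpl19, chr11:98026664-98026709, plus strand: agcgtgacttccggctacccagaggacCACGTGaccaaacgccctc
Rps19, chr7:24884766-24884825, plus strand: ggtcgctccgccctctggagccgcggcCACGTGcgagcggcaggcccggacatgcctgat

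The letters CCGGAAG or, on the other strand, CTTCCGG, the core of sites of ETS-family factors such as GABP, were in a window of 19 of the 38 core genes (50%), beside 9.93% of all genes. A C followed by at least 4 bases that are each C or T, beginning within 10 bases of the listed start on the strand of the gene, was found in 23 of 38 core genes (60.5%), beside 33.3% of all genes. The first 5 letters of CTTCCGG are themselves such a run, but in all 23 genes a run went beyond those letters. The 30 bases around the start, from 10 before to 20 after, are shown for 5 of the 7 core genes that passed the test between the fractions and for a paralogue that also did, with the run in capitals where there is one. Of the 7, 6 have a window, and 4 of these hold a run.
Rpl12, chr2:32961702-32961731, plus strand: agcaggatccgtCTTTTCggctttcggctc
Rpl14, chr9:120571507-120571536, plus strand: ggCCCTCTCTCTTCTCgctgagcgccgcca
Rpl35, chr2:39005112-39005141, minus strand: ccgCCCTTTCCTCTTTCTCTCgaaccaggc
Rps2, chr17:24720053-24720082, plus strand: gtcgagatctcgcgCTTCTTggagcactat
Rps25, chr9:44407704-44407733, plus strand: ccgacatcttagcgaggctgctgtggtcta
Rpl7l1, chr17:46782637-46782666, minus strand: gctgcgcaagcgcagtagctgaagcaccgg

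Values are array signals on a linear scale as the authors scaled them, and a difference is the log2 signal of the MYC-positive sample less that of its MYC-negative partner. The 2%-trimmed mean signal was nearly equal on all arrays, from 496.8 to 498.0, and between 34.7% and 42.7% of the probe sets lay above a signal of 100. A gene was tested where the mean log2 signal of a probe set over the 8 arrays lay above the 40th percentile, a signal of 18.7, and its brightest probe set was used. Myc, on whose fusion the cells were sorted, had a geometric mean signal of 663 in MYC-positive and 92.9 in MYC-negative samples, a log2 difference of 2.83 (SE 0.28, limma adjusted p = 0.00069) that checks the labels. At an adjusted p under 0.05, the MYC-positive fraction was higher for 11.2% and lower for 11.5% of the 11754 genes that entered the test, so that 49.4% of the called genes were higher. That share became 57.2% after quantile normalization, 85.4% after each array was centred on its median, and 58.2% after cyclic loess normalization, which evens out shifts that depend on brightness.

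Of the 43 core genes 42 passed the filter, and their signals were bright and only slightly higher in the MYC-positive fraction, a difference that was not seen after cyclic loess normalization. The median signal of the 42 was 11735, 15139, 12471 and 19412 in the MYC-negative samples of pairs 1 to 4, and 14842, 14714, 16780 and 21724 in the MYC-positive samples. The fractions overlapped widely: the MYC-negative sample of pair 4 was above the MYC-positive samples of the other 3 pairs. The median log2 difference of the 42 genes was 0.25, beside -0.06 for all genes tested, and it was 0.39, -0.03, 0.51 and 0.17 within pairs 1 to 4. Pair 2 therefore showed next to none of it. In all, 40 of 42 core genes lay above 0 as deposited (background 45.9%), but after cyclic loess normalization 16 of 42 did, with a median of -0.04. After quantile normalization 39 of 42 did, and the core median of 0.08 was about that of all genes (0.09).

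Of the 42 core genes, 7 rose and 0 fell in the MYC-positive fraction (limma, adjusted p under 0.05). At an unadjusted p under 0.05, 15 were higher and 0 lower, where 1996 of all 11754 genes were higher and 2257 lower. The 7 are 16.7%, where 11.2% of all genes were higher. A positive difference in all 4 pairs was seen for 14 (33.3%, background 19.3%), and the fractions did not overlap, with the positive one above, for 5 (11.9%, background 11.1%), a share near that of all genes. With the positive fraction below, it was 0 (background 10.9%). The large subunit had 5 higher of 22 measured (median 0.26) and the small subunit 2 of 20 (median 0.22), and whether they differ was not tested. The count of 7 was 2 without pair 1 (4.76%, all genes 3.43%) and 2 without the pair in the model (4.76%, all genes 8.98%). It was 6 after cyclic loess normalization (14.3%, all genes 13.7%), with 1 lower, and 39 after median centring (92.9%, all genes 27.3%). In the same samples, the myeloid marker list, of which 10 of 12 genes were measured, had 5 higher and 1 lower, and its summed signal ran from 1049 to 2209 in MYC-negative and from 1625 to 8456 in MYC-positive samples. Lyz2 ran from 25.9 to 333 in MYC-negative and from 408 to 1780 in MYC-positive samples, and Csf1r from 1.27 to 76.0 and from 74.9 to 1915. Apoe was the lower one (-1.87, limma adjusted p = 0.0088), from 268.5 to 914 in MYC-negative and from 74.9 to 215 in MYC-positive samples. Mpeg1 (0.34), Cd68 (0.51), Adgre1 (0.63) and Fcgr3 (1.67) did not pass. T cell markers, of which 2 of 8 were measured, summed to between 101.1 and 169 in MYC-negative and between 88.7 and 221 in MYC-positive samples. The part of such markers in the ribosomal protein differences was not tested. B cell markers summed to between 43394 and 54603 in MYC-negative and 34457 and 42959 in MYC-positive samples, and Cd22 was lower (-0.63) of the 5 measured. GC B cell markers summed to between 23449 and 34105 in MYC-negative and 18453 and 23321 in MYC-positive samples, with all 5 measured ones below 0 and Fas (-0.61) and Mybl1 (-2.12) lower by limma. Sdc1 of the plasma cell list was higher (2.02), while Prdm1 (0.54), Xbp1 (0.35) and Jchain (0.02) did not pass. Thy1 of the T cell list was higher (2.34) but dim, from 1.67 to 44.0 in MYC-negative and from 33.4 to 107.8 in MYC-positive samples. Cd8a, the other T cell marker measured, was at -0.52 and did not pass.

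**Figure D1:**
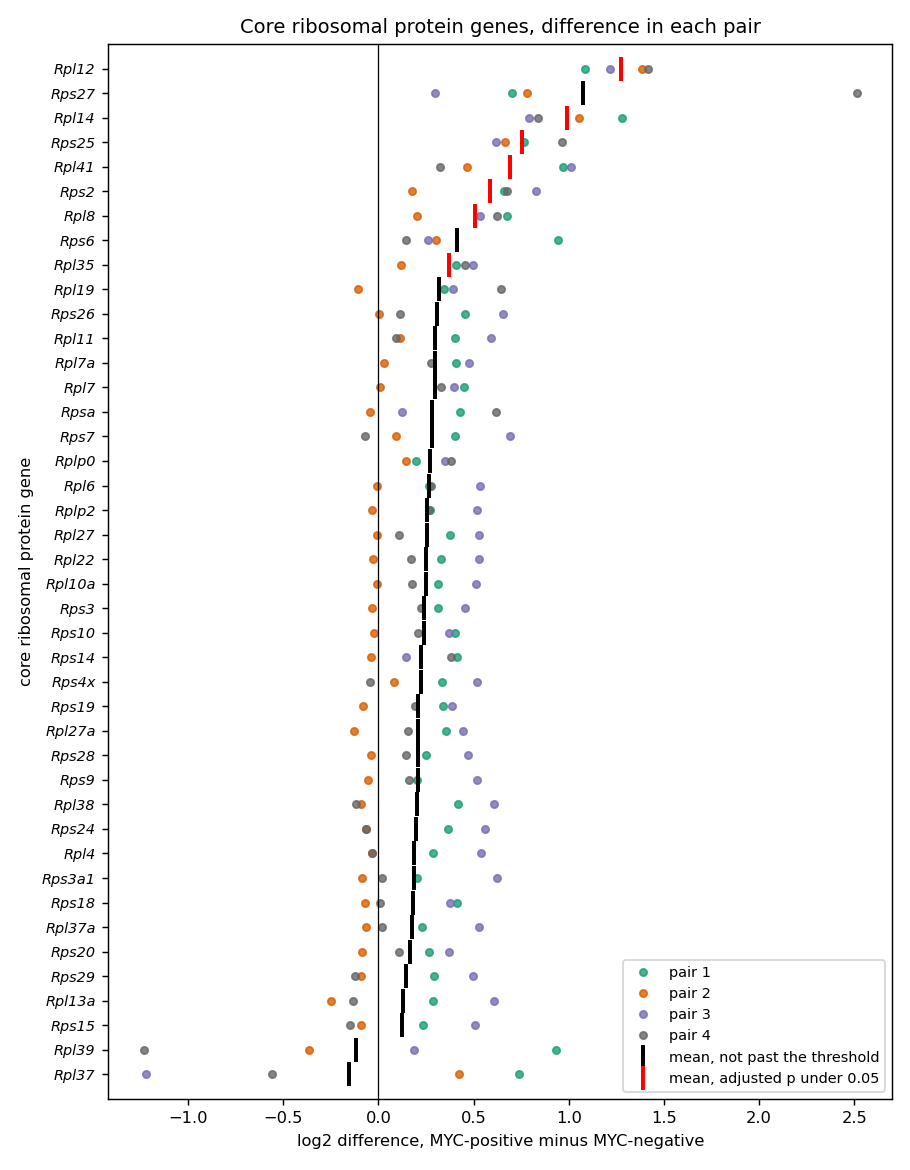
Log2 difference (MYC-positive minus MYC-negative, horizontal axis) of the 42 measured core genes, 1 row a gene, with a point for each of the 4 pairs and a bar at the mean, red at a limma adjusted p under 0.05. Most means lie between 0.1 and 0.4, with pair 2 near 0 and pair 3 mostly highest, on the deposited scale; under cyclic loess normalization 16 of 42 lie above 0.

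Among proteins of the large subunit, Rpl12 rose most. Its product lies at the base of the stalk that receives translation factors. Its signal was 732, 618, 658 and 641 in the MYC-negative samples of pairs 1 to 4, and 1553, 1616, 1531 and 1712 in the MYC-positive samples. The fractions were far apart, and all 4 pairs gave about the same step. The log2 difference was 1.28 (SE 0.18, n = 4 pairs, limma adjusted p = 0.0022), a fold of 2.42. It kept its call under all 13 alternatives, with values from 1.23 to 1.72.

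Rpl14, a protein of the outer face of the large subunit and 1 of the 4 core genes with an E-box, had signals of 1297, 1521, 1883 and 1810 in the MYC-negative samples. In the MYC-positive samples it had 3152, 3155, 3263 and 3239, so that the positive samples were nearly equal and lay above all negative ones. The log2 difference was 0.99 (SE 0.16, limma adjusted p = 0.0037), and this call too was kept under all 13 alternatives, from 0.90 to 1.43. By their brightest probe sets, the other 3 core genes with an E-box did not pass (limma). Rpl13a was at 0.13 (adjusted p = 0.58), Rpl19 at 0.32 (0.13) and Rps19, a gene mutated in Diamond-Blackfan anaemia, at 0.21 (0.24). The further kept probe sets of Rpl13a were at 0.45, 0.20 and 0.53. Their limma adjusted p in the fit over probe sets was 0.026, 0.33 and 0.019.

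Rpl41, which encodes a very short basic peptide, had signals of 4343, 6179, 5108 and 9535 in the MYC-negative and 8492, 8544, 10313 and 11925 in the MYC-positive samples. Each positive sample was above its partner, but the negative sample of pair 4 was above the positive ones of pairs 1 and 2. The log2 difference was 0.69 (SE 0.15, limma adjusted p = 0.013). Its other 3 probe sets were at 0.75, 0.81 and 0.42, the last of which did not pass (adjusted p = 0.27 in the fit over probe sets). Rpl41 had adjusted p = 0.11 without pair 1, 0.063 without the pair in the model and 0.080 without an intensity trend.

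Rpl8, whose product sits close to the site of peptide bond formation, had signals of 7253, 9727, 7637 and 10305 in the MYC-negative and 11600, 11186, 11062 and 15903 in the MYC-positive samples. The fractions just failed to meet, and the positive sample of pair 4 stood above the rest. The log2 difference was 0.51 (SE 0.12, limma adjusted p = 0.020), and 0.27 with adjusted p = 0.070 after cyclic loess normalization. Rpl35, a protein near the exit of the peptide tunnel, was at 0.37 (SE 0.11, limma adjusted p = 0.041), with 13618, 17154, 14414 and 21005 against 18043, 18602, 20357 and 28813. Its fractions overlapped. It was at 0.20 after quantile normalization (limma adjusted p = 0.091) and at 0.05 after cyclic loess normalization (adjusted p = 0.69). The other kept probe sets of Rpl35 were at 0.29 to 0.57. None of those passed in the fit over probe sets, with limma adjusted p from 0.090 to 0.11. Without any 1 of the 4 pairs, too, Rpl35 lost its call, with adjusted p from 0.064 to 0.20. Rpl8 had adjusted p = 0.14 without pair 1.

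Among proteins of the small subunit, Rps25, which is needed for translation from some viral internal entry sites, had signals of 2980, 2985, 4238 and 5287 in the MYC-negative samples. In the MYC-positive samples it had 5059, 4730, 6513 and 10312. The pairs rose in parallel although the levels of the negative samples differed by about as much as the fractions did. The log2 difference was 0.75 (SE 0.13, limma adjusted p = 0.0051), with adjusted p = 0.053 without pair 1 and 0.078 without the pair in the model. Rps2, at the mRNA entry side of the small subunit, was at 0.58 (SE 0.13, limma adjusted p = 0.016), with 7599, 11095, 7056 and 11383 in the MYC-negative and 11990, 12530, 12545 and 18173 in the MYC-positive samples. The lowest positive sample was just above the highest negative one. Rps2 had adjusted p = 0.11 without pair 1, 0.076 without the pair in the model and 0.099 without an intensity trend, and it was at 0.34 after cyclic loess normalization.

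**Figure D2:**
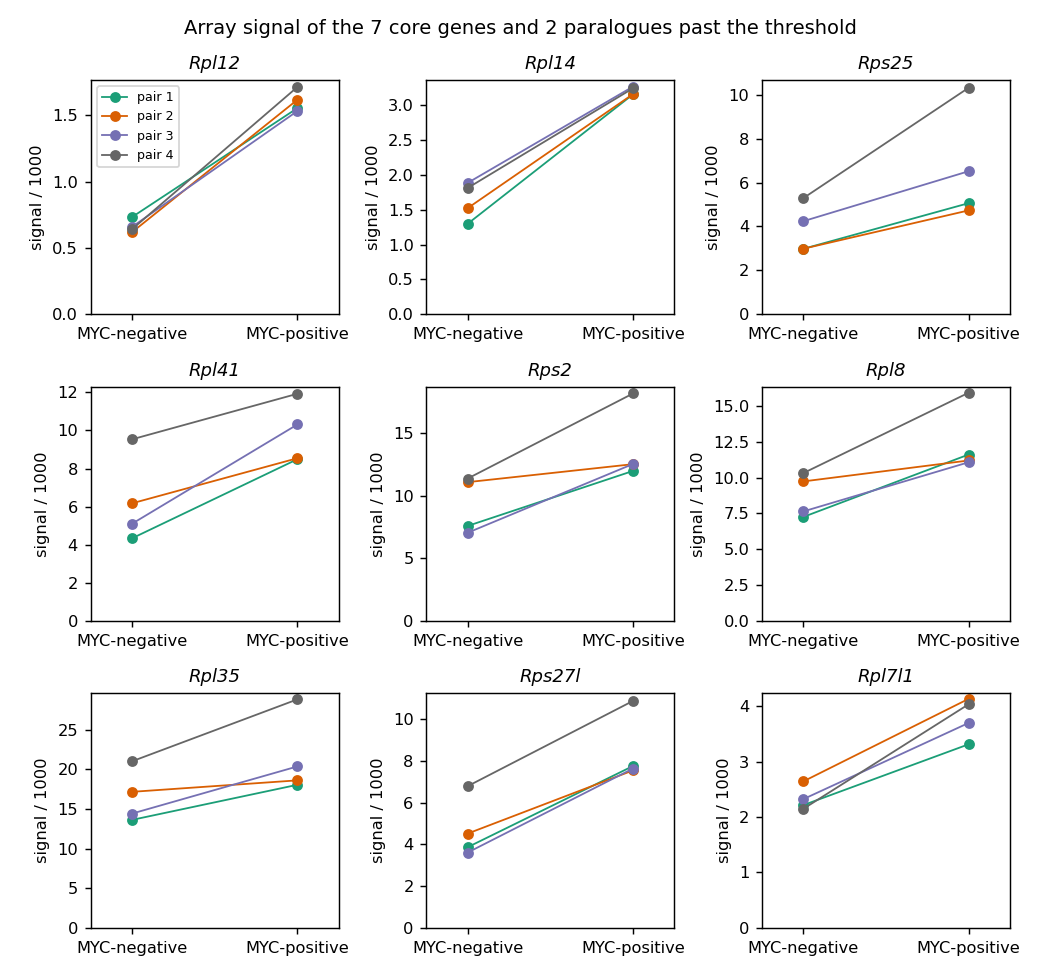
Array signal divided by 1000 (linear axis from 0) of the 7 core genes and 2 paralogues past the threshold, MYC-negative on the left and MYC-positive on the right of each panel, with a line joining the samples of a pair. For Rpl12 the negative samples lie between 618 and 732 and the positive ones between 1531 and 1712, while for Rpl35 the fractions overlap.

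Rplp0, Rplp2, Rpsa, Rpl11, Rps6 and Rpl38 did not pass the test. Rplp0, the base of the acidic stalk that recruits elongation factors, was at 0.27 (SE 0.11, limma adjusted p = 0.11) and had a positive difference in all 4 pairs, from 0.15 to 0.38. Rplp2, a stalk protein bound to it, was at 0.26 (adjusted p = 0.16) and Rpsa, also known as the laminin receptor precursor, at 0.28 (adjusted p = 0.16). After cyclic loess normalization Rplp0 was at 0.0026, Rplp2 at -0.03 and Rpsa at -0.0043. Rpl11, which binds MDM2 when ribosome assembly is disturbed, was at 0.30 (adjusted p = 0.11), with signals from 10865 to 21412 in MYC-negative and from 14342 to 22832 in MYC-positive samples, and it was at 0.0027 after cyclic loess normalization. Rps6, the substrate of S6 kinase, was at 0.41 (SE 0.17, adjusted p = 0.11). Its signals were 1664, 3165, 3556 and 2716 against 3202, 3901, 4264 and 3005, with most of the difference in pair 1, and its mean over both probe sets was at -0.20. Rpl38, which helps translate certain developmental mRNAs, was at 0.21 (adjusted p = 0.35), and at -0.13 after cyclic loess normalization.

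By their brightest probe sets, the 5 lowest core genes were Rpl37, Rpl39, Rps15, Rpl13a and Rps29, and 0 of them passed. Dimmer probe sets of Rpl13a did pass in the fit over probe sets, at 0.45 and 0.53 (limma adjusted p = 0.026 and 0.019). Rps15, Rpl13a and Rps29 were bright, at 0.13, 0.13 and 0.14, with positive differences in pairs 1 and 3 and negative ones in pairs 2 and 4. After cyclic loess normalization they were at -0.19, -0.19 and -0.20, where Rps29 alone passed as lower (limma adjusted p = 0.045). Rpl37 (-0.15, SE 0.43) and Rpl39 (-0.12, SE 0.50) had only dim probe sets with 1 gene, with signals from 49.4 to 127.8 and from 16.8 to 39.4 over all samples, and both were above 0 under the 3 other scalings. Rps27, a zinc finger protein of the small subunit, was also read by a dim probe set: 94.0, 84.2, 95.6 and 96.3 in the MYC-negative and 153, 144, 118 and 550 in the MYC-positive samples. Its difference of 1.07 (SE 0.41, limma adjusted p = 0.094) was 0.59 without pair 4, and it passed under the 3 other scalings, with adjusted p from 0.017 to 0.031. Rps16 had 1 member probe set, with a mean signal of 1.17, and was not tested.

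Probe sets of 1 gene did not all show the same difference, and the dimmer ones often showed the larger. Brightness here is a property of probes as well as of RNA, so it is no measure of a gene's abundance. Of the 95 core probe sets 90 passed the filter, of which 17 were higher (18.9%, where 9.03% of all 22024 probe sets tested were higher) and 0 lower in a fit over probe sets. The 59 core probe sets with a mean signal of at least 10000 had differences from 0.10 to 0.58 with a median of 0.25, where all 327 probe sets this bright had a median of 0.17. The 16 between 1000 and 10000 had a median of 0.47, where the 5651 probe sets of that range had 0.05. The 15 under 1000 had 0.74, where 16046 had -0.27. Over the 90, mean log2 signal and difference had a Spearman rho of -0.51, beside 0.23 over all probe sets tested; the points share the same 8 arrays, and probe sets of a gene share its RNA. The ranges of signal were set after the values were seen.

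Of 20 core genes with at least 2 kept probe sets, the dimmest had the larger difference in 15, beside 37.4% of the 5669 such genes on the array. Many of these gaps were small: dimmest minus brightest had a median of 0.08, beside -0.19 for all such genes. The gap was over 0.5 in 4 core genes: Rpl37a (1.12), Rps9 (0.95), Rps24 (0.89) and Rps10 (0.59). The dimmest probe sets of Rpl37a and Rps10 did not pass (limma adjusted p = 0.055 and 0.10 in the fit over probe sets). Rps9, whose product helps keep decoding accurate, was at 0.21 in its brightest probe set, with 11588 to 18410 in MYC-negative and 13452 to 20570 in MYC-positive samples, which overlap. A dim probe set of Rps9 was at 1.16 (SE 0.25, limma adjusted p = 0.015), with 447, 244, 244 and 181 against 670, 676, 516 and 515, which do not overlap. Rps24, another gene mutated in Diamond-Blackfan anaemia, was at 0.20 in its brightest probe set and at 1.09 in its dimmest kept one (SE 0.28, limma adjusted p = 0.026). That dim probe set had 125, 132, 187 and 145 in the MYC-negative and 337, 328, 359 and 234 in the MYC-positive samples. Rps20 showed both kinds: its brightest probe set was at 0.16, a dim one at 1.07 (SE 0.25, limma adjusted p = 0.020) and the dimmest at 0.16 (SE 0.50, adjusted p = 0.86). For Rps6 the order was the other way, with 0.41 in the brighter and -0.82 (SE 0.50, adjusted p = 0.28) in the dimmer. Rps9, Rps20 and Rps24 were chosen after their values were seen.

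**Figure D3:**
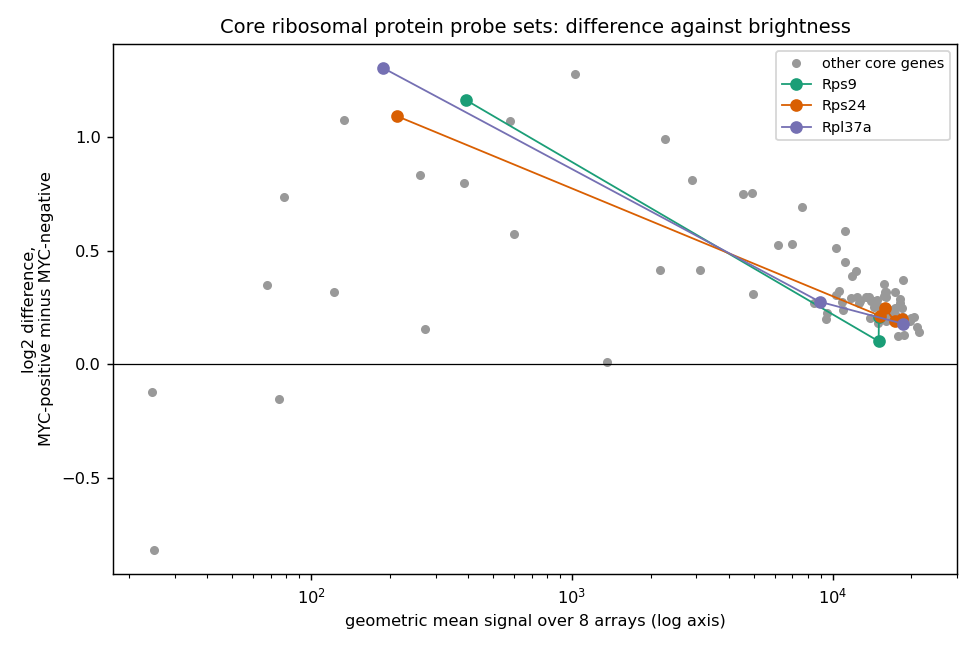
Log2 difference (vertical axis) against geometric mean signal over the 8 arrays (horizontal log axis) for the 90 kept core probe sets, with those of Rps9, Rps24 and Rpl37a joined by lines. Bright probe sets gather between 0.10 and 0.58, while dimmer ones of the same genes reach 1.30 on the deposited scale. The one at 1.30, of Rpl37a, did not pass (limma adjusted p = 0.055).

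By name, probe sets ending in _x_at or _s_at are those that the array's maker marks as sharing probes with other transcripts. Of 37 core probe sets ending in _x_at, 5 were higher (13.5%, beside 14.1% of all such probe sets), with a median of 0.24, and 0 of 3 ending in _s_at were (all 13.3%). Of 26 ending in _a_at, which the maker marks as shared by transcripts of 1 gene, 3 were higher (11.5%, beside 13.3% of all such probe sets), with a median of 0.27. Of 24 with the plain ending _at, 9 were higher (37.5%), with a median of 0.47, where 7.43% of all plain probe sets were higher and their median was -0.23. Rpl12, Rpl14 and Rps25 were read by plain probe sets, and Rps2, Rpl35 and Rpl41 by ones that end in _x_at. Ribosomal protein genes have many processed pseudogenes, and how much of their RNA these probes read was not tested. The 110 probe sets of several genes, of which 109 passed the filter, had a median of 0.25, with 9 higher and 1 lower, where 9.03% of all probe sets tested were higher and 12% lower.

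Of 6 paralogues, which are close copies of a core gene with their own expression, 5 passed the filter and 2 rose, where 11.2% of all genes were higher. Rps27l, a copy of Rps27 that is known as a p53 target, had signals of 3865, 4517, 3609 and 6787 in the MYC-negative samples. In the MYC-positive samples it had 7752, 7542, 7632 and 10869, all above the negative ones. The log2 difference was 0.88 (SE 0.13, limma adjusted p = 0.0030), its other 2 probe sets were at 0.78 and 0.81, and its call was kept under all 13 alternatives, from 0.71 to 1.32. Rpl7l1, a nucleolar relative of Rpl7 that acts in large subunit assembly, had 2215, 2643, 2323 and 2148 against 3313, 4133, 3698 and 4035. These fractions were also apart, with a difference of 0.70 (SE 0.14, limma adjusted p = 0.0093). The 2 further probe sets of Rpl7l1 were at 0.71 and 0.71, the dimmer with adjusted p = 0.054 in the fit over probe sets. Rpl7l1 had adjusted p = 0.061 without pair 1, 0.066 without pair 2 and 0.052 without an intensity trend.

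Rpl22l1, the partner gene of Rpl22 whose own mRNA Rpl22 can repress, was at 0.31 (SE 0.16, limma adjusted p = 0.19), from 8922 to 11559 in MYC-negative and from 9642 to 19986 in MYC-positive samples. Rps4l and Rpl39l were dim and scattered. Rps4l had 4.38, 60.2, 132.3 and 19.0 against 10.4, 85.0, 81.0 and 247, and Rpl39l had 34.0, 42.8, 94.2 and 173 against 42.3, 114, 282 and 17.2, so that the fractions overlap for both. Rpl3l, a muscle form of Rpl3, had a mean signal of 1.86 and was not tested. The pseudogene Rps15a-ps6 fell by 1.32 (SE 0.36, limma adjusted p = 0.030), with 442, 267, 326 and 326 against 117, 203, 187 and 73.3, and was named after its values were seen.

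Each paralogue's difference was set against its parent's within pairs for the 5 pairs of genes that were measured. With 4 pairs of samples an exact sign-flip permutation test cannot give a p below 0.125, so none of them can pass. Rpl7l1 exceeded Rpl7 (0.30) by 0.40 ± 0.24 (SD, n = 4 pairs), from 0.13 to 0.63, positive in 4 of 4 pairs (exact sign-flip permutation p = 0.12 raw, the smallest possible, and 0.62 adjusted over the 5). Rps27l minus Rps27 was -0.20 ± 1.14, from -1.83 in pair 4 to 0.78 in pair 3, and it was in pair 4 that the dim parent reached 550 (exact permutation p = 0.88), and it was 0.35 without pair 4. Rpl22l1 minus Rpl22 was 0.07 ± 0.51, from -0.62 to 0.62 (exact permutation p = 0.75). Rps4l minus Rps4x and Rpl39l minus Rpl39 were 0.96 ± 2.07 and 0.12 ± 1.81, spreads too wide to read.

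Of the other genes of the pathway, those for ribosome assembly had a higher median difference than the core ribosomal proteins. Of 25 assembly factor genes 23 were higher (92%, beside 11.2% of all genes) and 0 lower, with a median of 1.26. Among them were Gnl3 (2.18), Nop16 (1.85) and Wdr12 (1.72). Chaperones and importers that carry single ribosomal proteins were higher for 6 of 10 (60%), with a median of 0.60. They include Grwd1, a chaperone of Rpl3 (2.26, SE 0.18, limma adjusted p = 0.00041), Heatr3, which carries Rpl5 and Rpl11 (2.06, SE 0.19, adjusted p = 0.00054), and Tsr2, the escort of Rps26 (1.37, SE 0.21, adjusted p = 0.0034), which was at 0.76 as the mean over its probe sets (adjusted p = 0.075). Rps26 itself was at 0.31 (SE 0.14, adjusted p = 0.15) and Rpl11 at 0.30. Mitochondrial ribosomal proteins were higher for 48 of 76 (63.2%) and lower for 0, with a median of 0.73, led by Mrps6 (1.78), Mrpl12 (1.71) and Mrpl38 (1.52). As the mean over its probe sets Mrpl38 was at 0.85 (limma adjusted p = 0.097). Without pair 1 the counts were 18 assembly factors, 3 chaperones and importers and 14 mitochondrial ribosomal proteins, and without pair 2 they were 18, 3 and 22. Without pair 3, 3 chaperones and importers were higher. The core ribosomal proteins had 7 of 42 (16.7%) and 0.25. Their median signal was 11735 or more on every array, while most members of these 3 lists read under 10000. Core probe sets from 1000 to 10000 had a median difference of 0.47, and those under 1000 had 0.74. The lists were not matched for brightness or tested against each other, and they were set with earlier results known.

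Other mRNAs known to carry a TOP tract had a median difference of about the size seen for the core genes, on the deposited scale. Of 16 measured, 2 rose (12.5%, beside 11.2% of all genes): Npm1, a nucleolar chaperone (0.79), and Eef1d, an elongation factor subunit (0.50). Without pair 1 neither passed, with limma adjusted p = 0.057 and 0.15, and Eef1d was at 0.23 after cyclic loess normalization (adjusted p = 0.063). Eef1d also had adjusted p = 0.058 without pair 3, 0.12 without the pair in the model and 0.13 without an intensity trend, and Npm1 had 0.051 without that trend. 1 fell, Vim, the intermediate filament gene (-1.35, SE 0.20, limma adjusted p = 0.0028), and the median was 0.20. After median centring 14 of 16 were higher, and after cyclic loess normalization 1 was. Fau, a ribosomal protein gene with another kind of name, was at 0.12 (adjusted p = 0.51). Of 7 regulators of TOP translation and S6 kinases, 1 rose: Larp1, which binds TOP mRNAs (0.67, SE 0.14, limma adjusted p = 0.012). This is 14.3%, beside 11.2% of all genes, and Larp1 had adjusted p = 0.068 without pair 1, 0.091 without pair 2 and 0.066 without an intensity trend. The median of the 7 was -0.23, with 3 of them above 0, and 0 passed as lower.

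**Figure D4:**
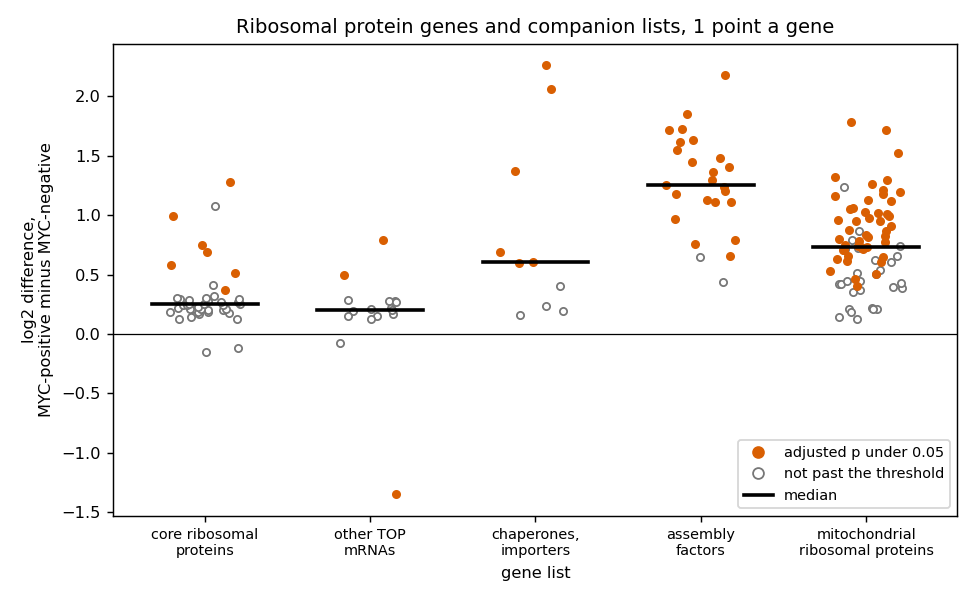
Log2 difference (vertical axis) of each measured gene in 5 lists, filled where the limma adjusted p is under 0.05, with a bar at the median. The medians are 0.25, 0.20, 0.60, 1.26 and 0.73 from left to right on the deposited scale. The first was 0.08 after quantile normalization and -0.04 after cyclic loess normalization.

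The sign of the group changed with the scaling of the arrays, and that of its leading genes did not. The median of the 42 core genes was 0.25 as deposited, 0.08 after quantile normalization, 0.69 after median centring and -0.04 after cyclic loess normalization, while that of all genes tested was -0.06, 0.09, 0.38 and 0.09. The core median was thus above that of all genes on the deposited scale and after median centring, about equal to it after quantile normalization, and below it after cyclic loess normalization. Rpl12, Rpl14, Rps25, Rps27l and Rpl7l1 were past the threshold under all 4 scalings, with differences of at least 0.63. Rpl41 and Rps2 passed under all 4 too, at 0.50 and 0.34 after cyclic loess normalization. Rpl12, Rpl14 and Rps25 were read by probe sets with mean signals of 1029, 2271 and 4877. Core probe sets from 1000 to 10000 had a median difference of 0.47, beside 0.25 for brighter ones. The part of brightness in the rank of these genes was not tested.

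**Figure D5:**
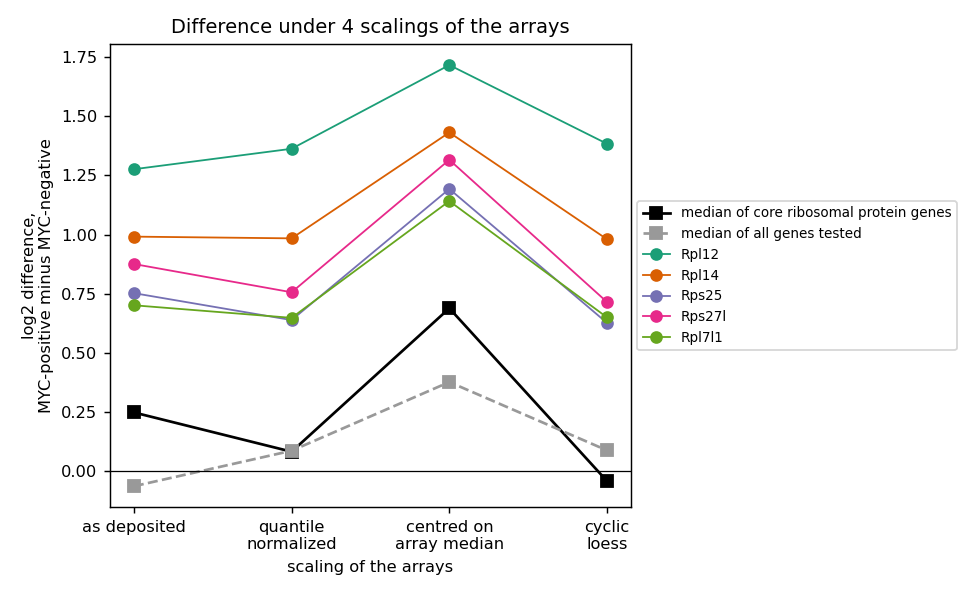
Log2 difference (vertical axis) under 4 scalings of the arrays (horizontal axis) for the median of the 42 core genes (black squares), the median of all genes tested (grey squares) and 5 named genes (circles). The black line runs from 0.25 to -0.04 and crosses the grey one, while the 5 genes stay at 0.63 or more.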

How the data were processed

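RNA of 4 MYC-positive and 4 MYC-negative samples was amplified from 5 to 20 ng with NuGEN kits and hybridised to Affymetrix mouse expression arrays, per the labels' protocols. As deposited, each value is the linear intensity of 1 probe set. The submitters' processing notes name MAS5; for its version and target the sources used here give nothing. The number of arrays limits the precision.

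Signals under 1 were set to 1 and log2 was taken. Of 27022 probe sets above the filter, 22024 had 1 gene, and the one with the highest mean stood for each of 11754 genes. A model with terms for fraction and pair was fitted in limma 3.58.1 (R 4.3.3; eBayes, intensity trend), with Benjamini-Hochberg adjustment over all genes, 2-sided, called under 0.05; this leaves 3 residual degrees of freedom. The simulated data had 11754 genes, of which 50 random ones were given each log2 step. The fit recovered 48% of rises of 1 and 38% of falls of 1, with 11 false calls. For steps of 2 it recovered 96% of rises and 80% of falls. In the data 22.7% of genes were called, far more than were changed in the simulation. Core genes had a median SE of 0.12, beside 0.27 for all genes. The recovered shares therefore do not give the power for core genes. Smaller steps were not simulated, so a gene that did not pass may still differ. The pairs come from the sample descriptions; deviations of paired samples from their group means correlated at 0.26, 0.17, 0.088 and 0.12 over genes.

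The members and lists were chosen with earlier results of these data known. Named genes were Myc, the core genes past the threshold, the 5 highest and 5 lowest, a list of members by role, all paralogues with their parents, and up to 3 called genes of each companion list. Promoter windows are RefSeq's. The alternatives were 3 other scalings, 2 filters, an offset of 16, the mean over probe sets, no block, no trend and leaving out each pair.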

Additional observations from a re-analysis of the deposited data

Results flagged for a closer look

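In 86 groups of 4 samples, the named genes and the core median in each fraction, 8 had a sample far from the other 3; chance gives about 1 in 20. In 6 of the 8 it was the MYC-positive sample of pair 4. The MYC-positive sample of pair 4 had 18173 for Rps2 (others 11990 to 12545), 15903 for Rpl8 (11062 to 11600), 550 for Rps27 (118 to 153), 19333 for Rplp0 (12327 to 12474), 10869 for Rps27l (7542 to 7752) and 4842 for Grwd1 (3407 to 3596). The MYC-negative sample of pair 1 had 581 for Grwd1 (849 to 917), and the MYC-positive sample of pair 3 had 317 for Mrpl38 (546 to 597). Without pair 4 the differences of Rps2, Rpl8 and Rps27l were 0.55, 0.47 and 0.94, and each was still past the threshold.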

How the results depend on the processing

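The median of all genes was 0.087 after quantile normalization, 0.38 after median centring and 0.088 after cyclic loess normalization. Median centring gave 3204 genes higher and 546 lower, 39 core genes and 81 core probe sets higher, medians of 0.69 and 0.72 for them, 14 other TOP mRNAs and 3 TOP regulators. Cyclic loess normalization gave 16 core genes above 0 and 1 lower, medians of -0.042 (genes) and 0.0093 (probe sets), and 1 TOP mRNA and 2 regulators higher; quantile normalization gave 2 regulators. Sign changes were looked up for the named genes only, and of those that changed only Rps29 under cyclic loess passed the threshold. Under quantile normalization they were Rps29 (-0.016), Rpl13a (-0.042), Rps15 (-0.057), Rpl39 (0.23), Rpl37 (0.25) and Rpl39l (0.32). Under median centring they were Rpl39 (0.32), Rpl37 (0.29) and Rpl39l (0.44). Under cyclic loess they were Rps29 (-0.20), Rpl13a (-0.19), Rps15 (-0.19), Rpl39 (0.32), Rpl37 (0.30), Rplp2 (-0.034), Rpsa (-0.0043), Rps19 (-0.079), Rpl38 (-0.13), Rpl39l (0.46), Rpl22 (-0.062) and Rps4x (-0.073). Rpl39l was at 0.075 with an offset of 16. The mean over probe sets gave 11 core genes higher and Rps6 at -0.20.

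Without the pair as a replicate block 901 genes were lower, and 2 core genes, 7 core probe sets and 1 TOP mRNA were higher. Without the intensity trend 736 genes were higher and 771 lower, with 3 core genes, 4 core probe sets, 3 chaperones, 25 mitochondrial ribosomal proteins, 0 TOP mRNAs and 0 regulators higher. Adding the probe sets of several genes, chosen after seeing the data, gave 199 probe sets, 26 higher and 1 lower.

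Leaving out 1 pair gave 403 to 1742 genes higher, 352 to 2036 lower, 2 to 8 core genes, 1 to 22 core probe sets, 0 to 2 TOP mRNAs, 0 to 2 regulators, 3 to 6 chaperones and 14 to 53 mitochondrial ribosomal proteins. Ranges that crossed 0 were those of Rpl13a (-0.032 to 0.25), Rps15 (-0.0009 to 0.22), Rpl39 (-0.47 to 0.25), Rpl37 (-0.45 to 0.20) and Rpl39l (-0.53 to 1.11). Those of 3 paralogue comparisons also did: Rpl39l minus Rpl39 (-0.44 to 0.85), Rpl22l1 minus Rpl22 (-0.12 to 0.29) and Rps27l minus Rps27 (-0.52 to 0.35). The cause of these changes was not tested.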
